A study of Mus musculus with 6 samples.

Results

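Zdbf2 and 9 other imprinted genes (H19, Dlk1, Meg3, Peg3, Mest, Plagl1, Grb10, Cdkn1c and Ndn) were followed through the 6 libraries of the study. The rows were those of the deposited count table, 10 of 46983 genes, whose gene name is one of these, and 7 of the 10 passed the filter on low counts. Zdbf2 was selected on its CPM in these libraries, because the values separate the corticosterone from the vehicle labels, so its difference between them is given as a description with no test. The other members were listed with it as imprinted genes, with earlier results of these data known.

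The cells were C2C12 myotubes, a wild-type mouse muscle line differentiated in horse serum within 7 days. All cells shared the line and the medium. For the last 24 h they received corticosterone, the main glucocorticoid of rodents, at 1e-07 M, or the ethanol vehicle at 1 µL/mL. Each treatment had 3 libraries of poly(A) RNA, called biological replicates by the submitters, and the p-values measure the spread between these libraries.

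An imprinted gene is transcribed mainly from 1 parental copy. The 2 copies differ in a DNA methylation mark set in the egg or sperm. Imprinted genes lie in clusters, where a control region and often a long noncoding RNA govern several neighbours. Many act in fetal growth: paternally expressed genes such as Igf2, Mest and Peg3 tend to favour it, and maternally expressed genes such as H19, Grb10 and Cdkn1c tend to restrain it. In muscle, H19 and Igf2 are known for their high levels in embryonic muscle and in differentiating myoblasts. The counts do not separate the 2 parental alleles, so the values below are sums over both.

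Total counts ran from 23877583 to 29928653 per library. Levels of a gene are CPM, its counts put on a common scale over libraries with TMM factors, and 3 counts, taken as the floor, equal 0.100 to 0.126 CPM. Of 7 myotube markers all passed the count filter, with a summed level of 9977 to 10640 CPM in the libraries labelled corticosterone and 7240 to 10078 CPM in those labelled vehicle. Markers of undifferentiated myoblasts summed to 112 to 133 and 115 to 137 CPM. In the same order, fibroblast markers summed to 22.1 to 30.1 and 19.8 to 39.6 CPM. Osteoblast or chondrocyte markers, mostly Sox9, summed to 32.4 to 60.9 and 42.2 to 66.6 CPM. The adipocyte, immune and neural markers Adipoq, Ptprc and Snap25 were at 0 in every library, but others of their lists were not. Tubb3 (neural) stood at 18.7 to 46.7 CPM, Cd68 (immune) at 0.83 to 2.03 CPM and Fabp4 (adipocyte) at 0 to 1.10 CPM. Endothelial markers summed to 0.10 to 0.38 and 0 to 0.08 CPM. Genes known to respond to glucocorticoids did not follow the labels in 2 libraries. Fkbp5, which encodes an HSP90-bound regulator of steroid receptors, stood at 151, 36.9 and 135 CPM in corticosterone 1, 2 and 3 and at 36.9, 177 and 35.4 CPM in vehicle 1, 2 and 3, and Tsc22d3 was high in the same 3 libraries. Corticosterone and vehicle below therefore mean the labels of the libraries, also for corticosterone 2 and vehicle 2. Many results are also given without both. The libraries were most alike as 3 pairs that do not follow the labels throughout: corticosterone 1 with vehicle 3, corticosterone 2 with corticosterone 3, and vehicle 1 with vehicle 2. Each pair holds 1 library where Fkbp5 and Tsc22d3 were high and 1 where they were low. Correlations of log2 CPM over the 14450 genes tested were 0.991, 0.989 and 0.991 within these pairs and 0.979 to 0.986 otherwise.

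Zdbf2, a paternally expressed gene for a DBF4-type zinc finger protein that affects growth after birth, was more abundant in every library labelled corticosterone than in every library labelled vehicle. It has an annotated span at GRCm38 chromosome 1, 63273265 to 63314576, on the plus strand (ENSMUSG00000027520). It stood at 7.30, 9.28 and 9.66 CPM in corticosterone 1, 2 and 3, from 209, 271 and 246 counts. In vehicle 1, 2 and 3 it stood at 1.60, 2.55 and 4.01 CPM, from 41, 74 and 96 counts. The groups did not overlap, and the nearest libraries were corticosterone 1 and vehicle 3. 

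The mean Zdbf2 level was 8.75 ± 1.27 CPM in corticosterone and 2.72 ± 1.21 CPM in vehicle (SD, n = 3 each), a ratio of 3.22. The log2 difference, corticosterone minus vehicle, was 1.69 ± 0.31 (SE). It was 1.60 without both libraries numbered 2, and 1.41 to 2.06 when each library was left out in turn. Between the nearest pair that holds both labels, corticosterone 1 was 1.82 times vehicle 3 (log2 difference 0.85). The 2 vehicle libraries of the third pair differed by 1.59 times. Of the variance of its log2 CPM, 89.5% lay between the 3 near pairs and 83.2% between the labels. A split into 3 groups tends to take up more variance than a split into 2, so the 2 shares are not compared. The share between the labels also follows from the choice of Zdbf2. Zdbf2 was high in corticosterone 2 and low in vehicle 2, unlike Fkbp5 in the same libraries. The summed myotube markers were likewise lowest in vehicle 1 and vehicle 2, at 7240 and 8280 CPM, and their part in the Zdbf2 difference was not tested. In bulk RNA, fewer cells that express a gene and less RNA per cell cannot be told apart.

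**Figure D1:**
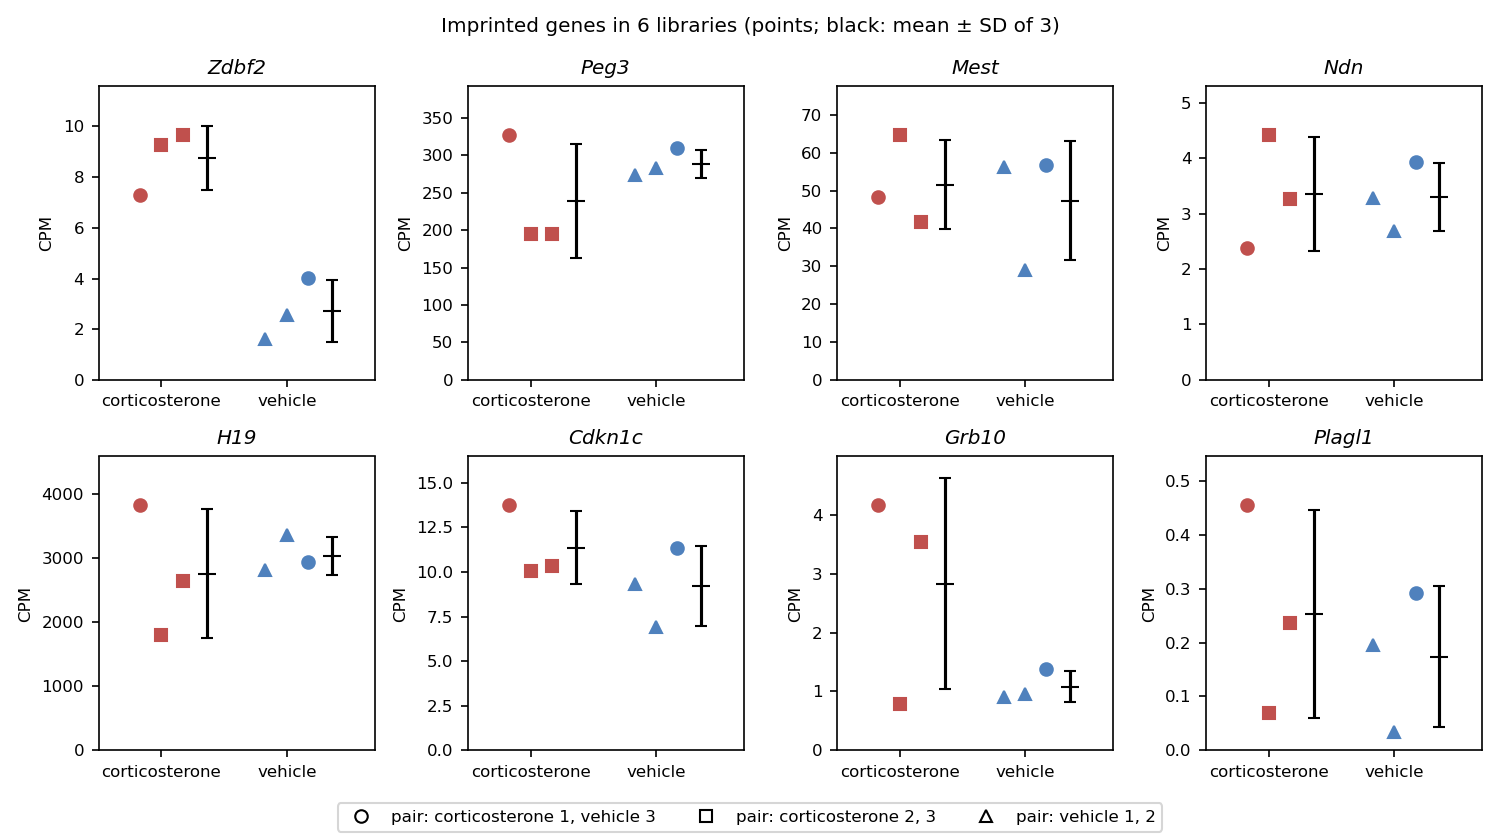
CPM (linear axis from 0) of the 8 members with any counts, in 3 libraries labelled corticosterone (red) and 3 labelled vehicle (blue); symbols mark the 3 pairs of most similar libraries and black bars the mean ± SD. Zdbf2 alone has all red points above all blue points, while Peg3 follows the pairs and Grb10 is high in corticosterone 1 and 3 only.

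RefSeq places the start of Zdbf2 at 2 sites. A long transcript from the upstream start, known as Liz, is made in the early embryo, and the downstream start belongs to the transcript of later tissues. The 250 bases before each start on GRCm38.p6 are shown with each CpG, the dinucleotide in which cytosine can be methylated, in capitals, because the 2 starts differ in CpG content. The first window is chr1:63200108-63200357 and the second chr1:63273019-63273268, both on the plus strand.
Zdbf2 upstream start: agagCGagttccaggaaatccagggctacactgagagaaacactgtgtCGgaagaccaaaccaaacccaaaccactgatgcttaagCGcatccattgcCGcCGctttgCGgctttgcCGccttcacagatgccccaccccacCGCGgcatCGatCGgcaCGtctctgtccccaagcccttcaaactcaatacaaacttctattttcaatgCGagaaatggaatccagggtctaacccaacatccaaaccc
Zdbf2 downstream start: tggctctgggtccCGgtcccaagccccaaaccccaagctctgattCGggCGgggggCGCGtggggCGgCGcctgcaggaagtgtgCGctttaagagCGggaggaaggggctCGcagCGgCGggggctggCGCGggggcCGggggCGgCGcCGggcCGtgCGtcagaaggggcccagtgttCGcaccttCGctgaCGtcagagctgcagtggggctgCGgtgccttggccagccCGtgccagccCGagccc
The upstream window holds 13 CpG and the downstream window 26, against a median of 6 over 32851 RefSeq windows of the same length. Of those windows, 68.5% hold fewer than 13 and 90.4% fewer than 26. The palindromic glucocorticoid receptor motif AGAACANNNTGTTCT, searched on both strands, occurs in neither window and in 0.00913% of all windows. Methylation was not measured in this study.

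Counts near the upstream start were close to the floor. Platr12, a noncoding gene that starts next to that site, had 0 to 4 counts per library. Gpr1, an imprinted receptor gene that lies across it on the other strand, had 0 to 2 counts. Of the exon sequence of Zdbf2, 99 bp are shared with Gm24513 on the opposite strand, which had 0 counts. No source says that the library kit keeps strand, so overlapping genes on opposite strands cannot be told apart in the counts.

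The genes around Zdbf2 had smaller differences. Of 46 annotated genes that start within 1 Mb, 18 had no count in any library and 10 passed the count filter. Their log2 differences ran from -0.34 to 0.17, with 6 positive and 4 negative, where 50.8% of all genes tested were positive. Of all 14450 genes tested, 16.6% did not overlap between the labels in either direction, and among the 10 neighbours this held for 1. That gene was Fastkd2, a mitochondrial RNA-binding protein gene, at 20.4, 18.2 and 19.2 CPM in corticosterone and 22.0, 24.1 and 21.0 CPM in vehicle. It was lower in corticosterone, by -0.22 ± 0.10 on the log2 scale. Eef1b2 and Ndufs1, the nearest protein-coding neighbours that passed the filter, encode a translation elongation factor and a subunit of respiratory complex I. The pseudogene Gm11605, slightly nearer, differed by 0.08 ± 0.38. Eef1b2 and Ndufs1 differed by 0.07 ± 0.10 and 0.09 ± 0.08.

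**Figure D2:**
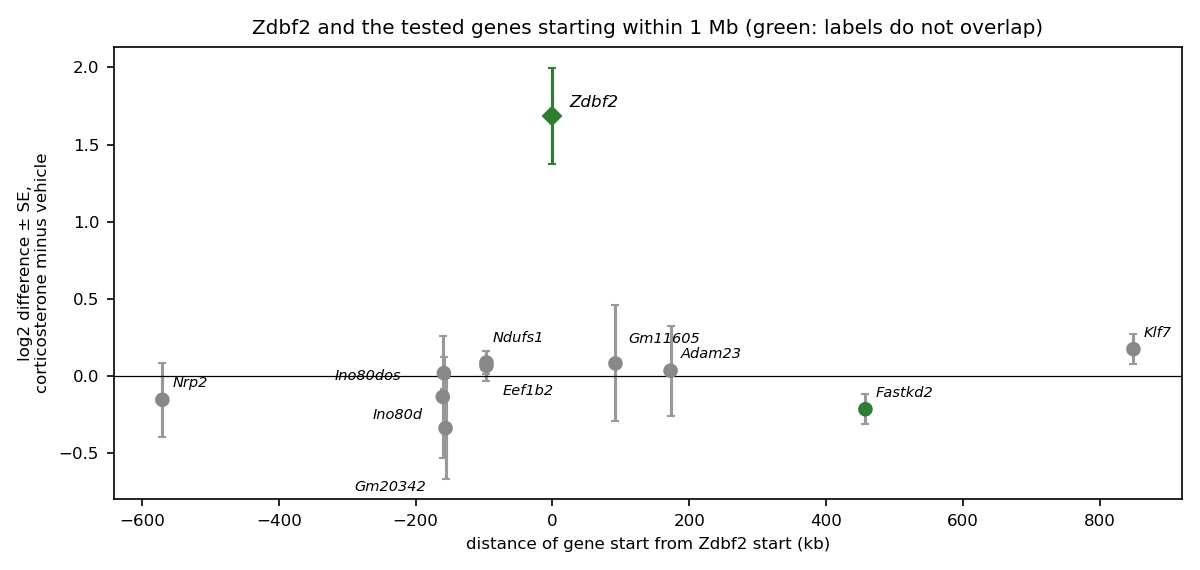
Log2 difference between corticosterone and vehicle (y axis, ± SE) of Zdbf2 (diamond) and the 10 tested genes that start within 1 Mb, against the distance of their start from that of Zdbf2 (x axis, kb). Zdbf2 lies at 1.69 and its neighbours between -0.34 and 0.17; green points have no overlap between the labels.

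The genes whose log2 CPM followed Zdbf2 most closely over the 6 libraries, among 10639 genes with a mean of at least 5 CPM, were Tmem43, Rhobtb3, Plaa, Wdr46 and Psmd2. Their Pearson correlations were 0.998, 0.995, 0.991, 0.990 and 0.989. The 6 points share their libraries with the contrast for which Zdbf2 was chosen, and 107 genes had the same order of libraries as Zdbf2. Tmem43, a gene for an inner nuclear membrane protein, stood at 230, 245 and 254 CPM in corticosterone and 159, 181 and 197 CPM in vehicle. Its range across libraries was thus far narrower than that of Zdbf2. None of the 5 is in the list of imprinted genes examined here.

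The H19 cluster held the most abundant member. H19, a maternally expressed noncoding RNA (ENSMUSG00000000031, chromosome 7, 142575529 to 142578143, minus strand), gave 3822, 1808 and 2646 CPM in corticosterone and 2808, 3367 and 2934 CPM in vehicle. It ranked 15 of the 14450 genes tested by CPM per kb of exon. Corticosterone 1 was the highest and the library labelled corticosterone 2 the lowest, so that the vehicle libraries lay inside the range of the corticosterone ones. The log2 difference was -0.14 ± 0.25 (edgeR adjusted p = 0.836). It turned to 0.17 without both libraries numbered 2 (edgeR adjusted p = 0.919).

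Igf2, the paternally expressed growth factor of the same cluster, gave 496, 317 and 419 CPM in corticosterone and 162, 221 and 376 CPM in vehicle. Only vehicle 3 reached into the corticosterone range, and the log2 difference was 0.70 ± 0.30 (edgeR adjusted p = 0.426). It was 0.76 without both libraries numbered 2. The value rested on single libraries: it was 0.45 without vehicle 1 and 1.09 without vehicle 3 (edgeR adjusted p = 0.930 and 0.084). H19 and Igf2, which share enhancers, had a Pearson correlation of 0.12 over the 6 libraries, while Igf2 and Zdbf2 had 0.84. These are descriptions over 6 points that share library and depth. Ins2, an insulin gene at the end of the cluster, stood at 0.75 to 1.55 CPM and differed by 0.09 ± 0.36.

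Igf2os, an RNA gene antisense to Igf2, was looked at after the values had been seen. It stood at 5.17, 6.61 and 7.19 CPM in corticosterone and at 0.98, 1.59 and 3.72 CPM in vehicle, with no overlap. Its log2 difference was 1.60 ± 0.44 (edgeR adjusted p = 0.364), and 1.40 without both libraries numbered 2. DESeq2 called it (DESeq2 adjusted p = 0.0242), and 0.985% of its 14005 genes. Neither p-value is read as a result, because the gene was chosen after its values were seen. It shares 98 bp of exon with Igf2, so reads there cannot be assigned to one of them. Beyond these exons the spans of the 2 genes overlap too, and reads of unspliced Igf2 there cannot be set apart without strand. Over the 6 libraries the Pearson correlation of Igf2 and Igf2os was 0.89.

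H19 and Mest are host genes of microRNAs, and their mature sequences are shown with the seed, bases 2 to 8, in capitals, since the host levels above and below say nothing of them. The 4 seeds differ from each other.
mmu-miR-675-5p: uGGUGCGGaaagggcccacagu
mmu-miR-675-3p: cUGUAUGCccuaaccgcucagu
mmu-miR-335-5p: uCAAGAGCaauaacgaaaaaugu
mmu-miR-335-3p: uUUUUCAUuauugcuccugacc
The sequences are RefSeq's. Mir675, which lies within an H19 exon, had 0 counts in every library although H19 was among the most abundant RNAs. Mir335, within Mest, had 0 to 3 counts. A poly(A) library does not capture mature microRNAs, and how reads that fall in both a host exon and a microRNA gene were counted is not given in the sources used here.

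Peg3, a paternally expressed zinc finger gene active in muscle and brain (ENSMUSG00000002265, chromosome 7, 6703892 to 6730431, minus strand), followed the near pairs and not the labels. It gave 327, 195 and 195 CPM in corticosterone and 273, 283 and 309 CPM in vehicle. The values of the 2 libraries in a pair differed by at most 1.06 times, and 99.2% of the variance lay between pairs. Corticosterone 2 and 3 were the low libraries, and corticosterone 1 was above every vehicle library. The log2 difference was -0.27 ± 0.20 (edgeR adjusted p = 0.604). It was -0.57 without corticosterone 1 (edgeR adjusted p = 0.083) and -0.16 without both libraries numbered 2.

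Zim1, the maternally expressed zinc finger gene beside Peg3, had the same order of libraries. It gave 36.2, 18.9 and 24.2 CPM in corticosterone and 29.0, 29.7 and 35.2 CPM in vehicle, a log2 difference of -0.24 ± 0.22 (edgeR adjusted p = 0.666). Usp29, which starts from the same control region, had 2 to 8 counts per library and was not tested.

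Plagl1, a paternally expressed zinc finger factor known to regulate other imprinted genes, was at the edge of detection. It had 13, 2 and 6 counts in corticosterone and 5, 1 and 7 in vehicle, or 0.03 to 0.45 CPM, and did not pass the filter. At the 13 counts of corticosterone 1 the 95% Poisson interval was 0.24 to 0.78 CPM. At the 1 count of vehicle 2 it was 0.00087 to 0.19 CPM. Such intervals cover counting error only, and a difference between the labels was not tested. The motif that PLAGL1 is known to bind, GGGGCCCC, was searched on both strands in the RefSeq windows of the 8 members that have one in the table used. It occurred in the window of Peg3 alone, shown with the motif in capitals (GRCm38.p6 chr7:6730420-6730669, minus strand), and in 0.889% of all windows.
Peg3: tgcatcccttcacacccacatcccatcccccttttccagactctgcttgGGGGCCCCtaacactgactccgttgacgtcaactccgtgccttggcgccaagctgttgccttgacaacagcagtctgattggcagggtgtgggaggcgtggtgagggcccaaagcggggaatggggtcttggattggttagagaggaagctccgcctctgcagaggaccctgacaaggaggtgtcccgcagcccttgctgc

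Mest, a paternally expressed gene for an alpha/beta hydrolase-fold protein of the mesoderm (ENSMUSG00000051855, chromosome 6, 30723547 to 30748465, plus strand), overlapped between the labels. It gave 48.3, 64.7 and 41.8 CPM in corticosterone and 56.3, 29.1 and 56.7 CPM in vehicle. The 2 libraries numbered 2 were the extremes in opposite directions. With all libraries the log2 difference was 0.12 ± 0.27 (edgeR adjusted p = 0.866), and without both libraries numbered 2 it was -0.33. Copg2, a coat protein gene that ends inside Mest, gave 84.9, 99.6 and 88.8 CPM in corticosterone and 81.7, 75.8 and 79.7 CPM in vehicle, with no overlap. Its log2 difference was 0.20 ± 0.08 (edgeR adjusted p = 0.406), and 0.11 without both libraries numbered 2. The exons of Mest and Copg2 share 912 bp on opposite strands, so their reads there cannot be told apart. Klf14, the third gene of this cluster, had 0 counts.

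Grb10, a growth factor receptor adaptor that restrains insulin signalling (ENSMUSG00000020176, chromosome 11, 11930508 to 12038683, minus strand), was high in 2 libraries. It gave 4.16, 0.79 and 3.54 CPM in corticosterone, from 119, 23 and 90 counts. In vehicle it gave 0.90, 0.97 and 1.38 CPM, from 23, 28 and 33 counts. The library labelled corticosterone 2 was the lowest of all, below every vehicle library. Vehicle 2, where Fkbp5 was high, was not raised in Grb10. The log2 difference was 1.39 ± 0.57 (edgeR adjusted p = 0.408), and 1.76 without both libraries numbered 2 (edgeR adjusted p = 0.465).

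Ddc, the aromatic amino acid decarboxylase gene next to Grb10, was high in the same 2 libraries. It gave 6.98, 2.60 and 6.44 CPM in corticosterone and 2.35, 3.24 and 2.50 CPM in vehicle. The log2 difference was 0.98 ± 0.37 (edgeR adjusted p = 0.386), and 1.47 without both libraries numbered 2 (edgeR adjusted p = 0.328). The Pearson correlation of Grb10 and Ddc over the 6 libraries was 0.94. Within the nearest pair with both labels, corticosterone 1 was 3.02 times vehicle 3 in Grb10, and within the pair labelled corticosterone the ratio was 4.49.

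Cdkn1c, the maternally expressed cyclin-dependent kinase inhibitor p57 that holds differentiating myoblasts out of the cell cycle (ENSMUSG00000037664, chromosome 7, 143458339 to 143461050, minus strand), overlapped between the labels. It gave 13.7, 10.0 and 10.3 CPM in corticosterone and 9.34, 6.89 and 11.4 CPM in vehicle. Vehicle 3 lay above 2 of the corticosterone libraries. The log2 difference was 0.31 ± 0.21 (edgeR adjusted p = 0.580), and 0.22 without both libraries numbered 2.

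Of the 10 listed genes of the Cdkn1c and Kcnq1 cluster, 8 passed the filter, and Phlda2 and Ascl2, known for their placental roles, had 0 counts. Tssc4 was higher in every library labelled corticosterone, at 45.1, 53.7 and 52.7 CPM against 31.8, 34.4 and 40.7 CPM. Its log2 difference was 0.50 ± 0.12 (edgeR adjusted p = 0.364), and 0.43 without both libraries numbered 2. Osbpl5, a lipid transfer protein gene, was lower in every library labelled corticosterone, at 93.8, 80.8 and 76.8 CPM against 104, 109 and 95.2 CPM. Its log2 difference was -0.29 ± 0.10 (edgeR adjusted p = 0.364), and -0.22 without both libraries numbered 2. The other members of the cluster overlapped. Cd81, a tetraspanin gene and the most abundant of them, differed by 0.09 ± 0.07 and Nap1l4, a histone chaperone gene, by 0.04 ± 0.08. Kcnq1ot1, the long noncoding RNA that silences the cluster on the paternal copy, stood at 0.51 to 1.64 CPM and differed by 0.77 ± 0.36 (edgeR adjusted p = 0.445). The potassium channel gene Kcnq1 differed by 0.30 ± 0.44 and the transporter gene Slc22a18 by -0.30 ± 0.27.

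Ndn, a paternally expressed gene of the Prader-Willi region whose product necdin acts in neurons and in myoblast differentiation (ENSMUSG00000033585, chromosome 7, 62346569 to 62350262, plus strand), had near-equal means. It gave 2.37, 4.42 and 3.26 CPM in corticosterone and 3.28, 2.69 and 3.92 CPM in vehicle. The log2 difference was 0.03 ± 0.27 (edgeR adjusted p = 0.974), and it was -0.022 with scaling by library totals. The other genes of the region that passed the filter overlapped between the labels too. Ube3a, a ubiquitin ligase gene expressed from both copies outside neurons, was the steadiest, at 124 to 131 CPM in the 6 libraries. Snrpn, a splicing protein gene, stood at 4.83 to 6.39 CPM and its noncoding extension Snhg14 at 4.22 to 8.18 CPM. Mkrn3 and Peg12 stood near 1 CPM or below, Magel2 had 1 count in all and Snurf, which lies within Snrpn, had 0.

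Dlk1 and Meg3 could not be compared, because both had 0 counts in all 6 libraries. Dlk1, a paternally expressed relative of the Notch ligands (ENSMUSG00000040856, chromosome 12, 109452823 to 109463336, plus strand), is known from regenerating and hypertrophic muscle. Meg3, a maternally expressed noncoding RNA (ENSMUSG00000021268, chromosome 12, 109541001 to 109571726, plus strand), starts the long noncoding unit of the same cluster. The floor of 3 counts allows each up to 0.100 to 0.126 CPM, which covers counting error only. The zeros ran through the whole cluster: of 104 annotated genes from the start of Dlk1 to the end of Dio3, 103 had no count among 162038224 counts in all. The exception was Dio3, a thyroid hormone deiodinase gene, with 8 counts in total. The files do not show whether these zeros come from the cells or from the counting, so they are not read as absence of expression. Outside the cluster, the nearest tested genes were Wdr25 on one side and Ppp2r5c on the other, 424 and 166 kb away. They stood at 7.40 to 10.8 and 121 to 133 CPM, so both flanking genes had counts.

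**Figure D3:**
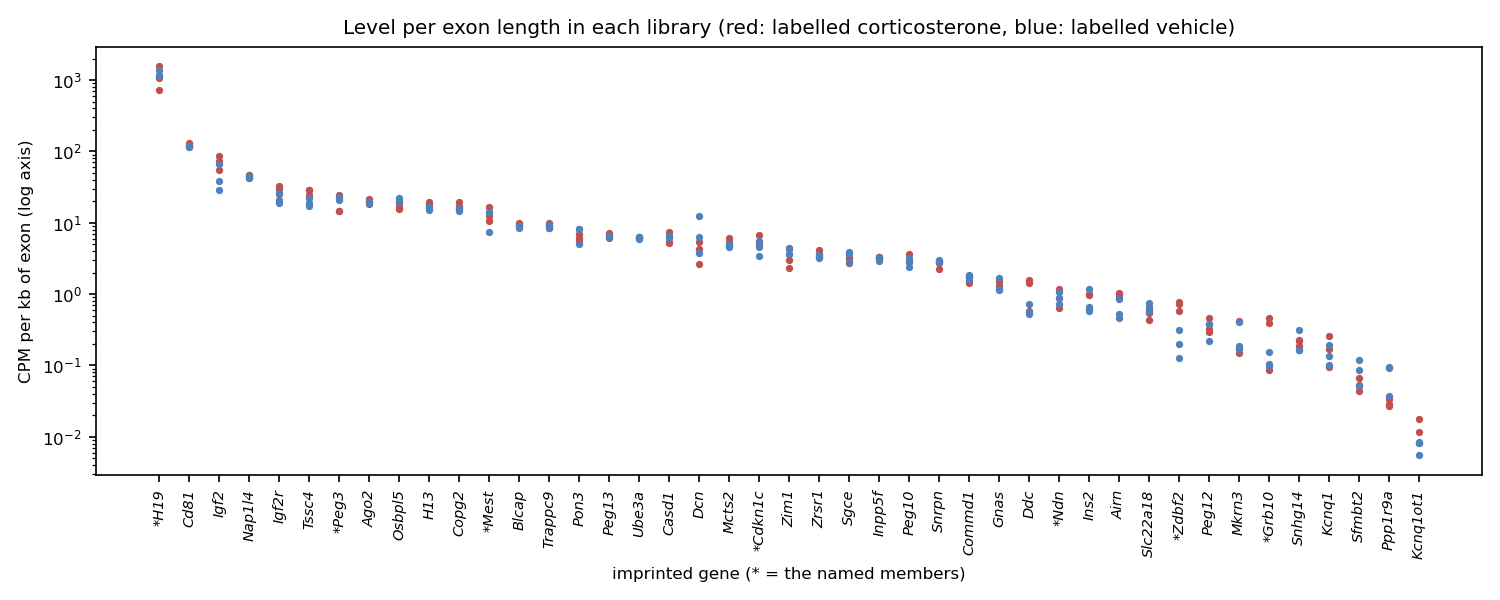
CPM per kb of exon (log axis) of the 43 imprinted genes that passed the count filter, in each library, ordered by the mean; red points are libraries labelled corticosterone and blue those labelled vehicle, and stars mark the 7 members. H19 lies above all the others, at a mean of 1178 CPM per kb, and Zdbf2 and Grb10 lie among the lowest.

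Per kb of exon the members that passed the filter covered a wide range. H19 stood at 1178 CPM per kb, Peg3 at 19.8 and Mest at 12.5. Cdkn1c followed at 5.04, Ndn at 0.90, Zdbf2 at 0.45 and Grb10 at 0.21 CPM per kb. The ranges over the 6 libraries did not overlap between H19 and Peg3, Mest and Cdkn1c, or Cdkn1c and Ndn. Those of Peg3 and Mest overlapped, and so did those of Ndn and Zdbf2, and of Zdbf2 and Grb10. By this measure Zdbf2 ranked 12610 and Grb10 13536 of the 14450 genes tested.

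No member was called by edgeR at an adjusted p under 0.05, where 0% of all 14450 genes were called. Of the 6 tested members other than Zdbf2, Grb10 alone was under the unadjusted edgeR threshold of 0.05, as were 11.8% of all genes. DESeq2 called 0.985% of its 14005 genes and none of those 6 members. None of those 6 was free of overlap between the labels, where 16.6% of all genes were.

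The list of imprinted genes, of which the members are part, was read against all genes. Of 68 listed genes, 12 had no count in any library and 43 passed the filter, Zdbf2 included. Of the 42 others, 26 had positive and 16 negative log2 differences, with 50.8% positive among all genes tested. With Zdbf2 the tally was 27 and 16, and with scaling by library totals it was 24 and 19. The median of the 42 was 0.08, against 0.00 for all genes tested. Of the 42, edgeR called none, and 9 had an unadjusted p under 0.05, which 11.8% of all genes had. DESeq2 called 1 of them, Tssc4, and 0.985% of all genes. Among the 42, 8 did not overlap between the labels, or 19% against 16.6% of all genes. Of these, 6 were higher in corticosterone, where 8.41% of all genes were, and 2 were lower, where 8.19% were. Without both libraries numbered 2, 28 of 45 imprinted genes, Zdbf2 included, had positive differences, where 7158 of all 14403 genes had. None of the 45 was called, where 3 of all genes were.

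The genes were also counted by the parental copy listed as expressed, beside the 50.8% of all genes tested that were positive. The expressed copy was not measured in these cells, and the maternal list holds Ube3a, expressed from both copies outside neurons. Of 20 genes other than Zdbf2 listed as paternal, 13 were positive and 7 negative, and 12 and 8 with scaling by library totals. Of 22 listed as maternal, 13 were positive and 9 negative, and 11 and 11 with scaling by library totals. The genes without overlap other than Zdbf2, Copg2, Tssc4 and Osbpl5 were Inpp5f, Airn, Blcap and H13, higher in corticosterone, and Ppp1r9a, lower. Ppp1r9a stood at 0.39 to 1.37 CPM, from 10 to 39 counts. Its nearest libraries were corticosterone 1 with 14 counts and vehicle 3 with 13.

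**Figure D4:**
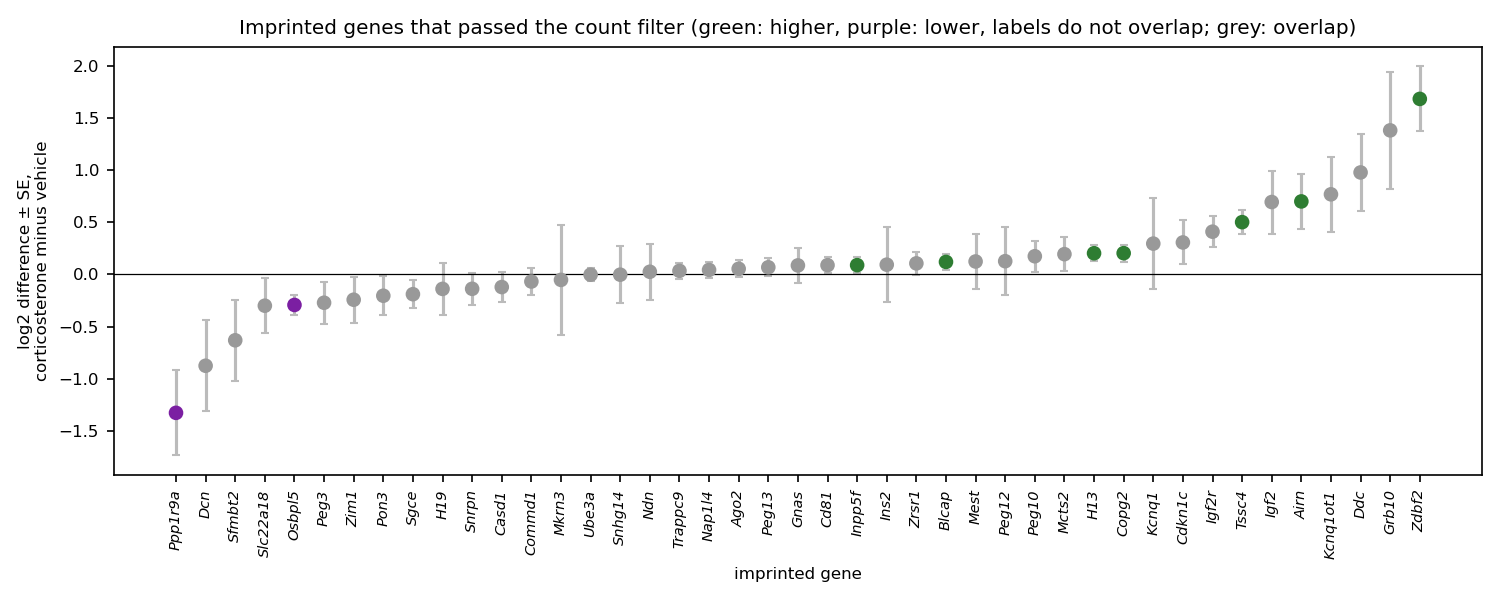
Log2 difference between corticosterone and vehicle (± SE) of the 43 imprinted genes tested, in ascending order. Zdbf2 is the highest at 1.69 and Ppp1r9a, with 10 to 39 counts per library, the lowest at -1.33. The 7 green and 2 purple points have no overlap between the labels, and grey points overlap.

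Among the imprinted genes outside the members' clusters, the most abundant were Ago2 and Igf2r. Ago2, the slicer of RNA interference, stood at 282, 301 and 257 CPM in corticosterone and 263, 274 and 271 CPM in vehicle, a log2 difference of 0.05 ± 0.08 (edgeR adjusted p = 0.803). Igf2r, the maternally expressed receptor that clears IGF2, stood at 276, 309 and 237 CPM and 176, 195 and 247 CPM, overlapping only through vehicle 3 and corticosterone 3. Its log2 difference was 0.41 ± 0.15 (edgeR adjusted p = 0.384), and 0.28 without both libraries numbered 2. H13, a signal peptide peptidase gene, was higher in every library labelled corticosterone, at 159, 161 and 176 CPM against 136, 145 and 149 CPM. Blcap, a gene for a small membrane protein, stood at 27.3, 29.9 and 29.5 CPM against 26.6, 27.2 and 26.1 CPM. Their log2 differences were 0.20 ± 0.08 and 0.12 ± 0.08 (edgeR adjusted p = 0.386 and 0.552).

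Read by the 3 near pairs, the imprinted genes tested had a median of 77.6% of their variance between pairs, and all genes 65.9%. Between the labels the medians were 27.6% and 22.2%. In the 1 pair that holds both labels, 32 of 43 imprinted genes (74.4%) differed in the direction of the labels, against 63.0% of all genes. The pair is part of the label contrast, so the shares are not independent of it, and Zdbf2 is among the 32 by its choice. Of the 7 members that passed the filter, this held for Zdbf2, whose choice fixed the direction, and for Grb10 and Cdkn1c. H19, Peg3, Mest and Ndn went against the label difference. For Ndn, corticosterone 1 was lower than vehicle 3 by -0.71 on the log2 scale. Within each of the 3 near pairs, Zdbf2, H19, Peg3 and Grb10 were higher in the library with high Fkbp5, and Mest and Ndn lower. Cdkn1c went both ways. Some of these differences were small: between corticosterone 2 and 3, Peg3 differed by 1.003 times and Zdbf2 by 1.04 times. A link to Fkbp5 was not tested.

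**Figure D5:**
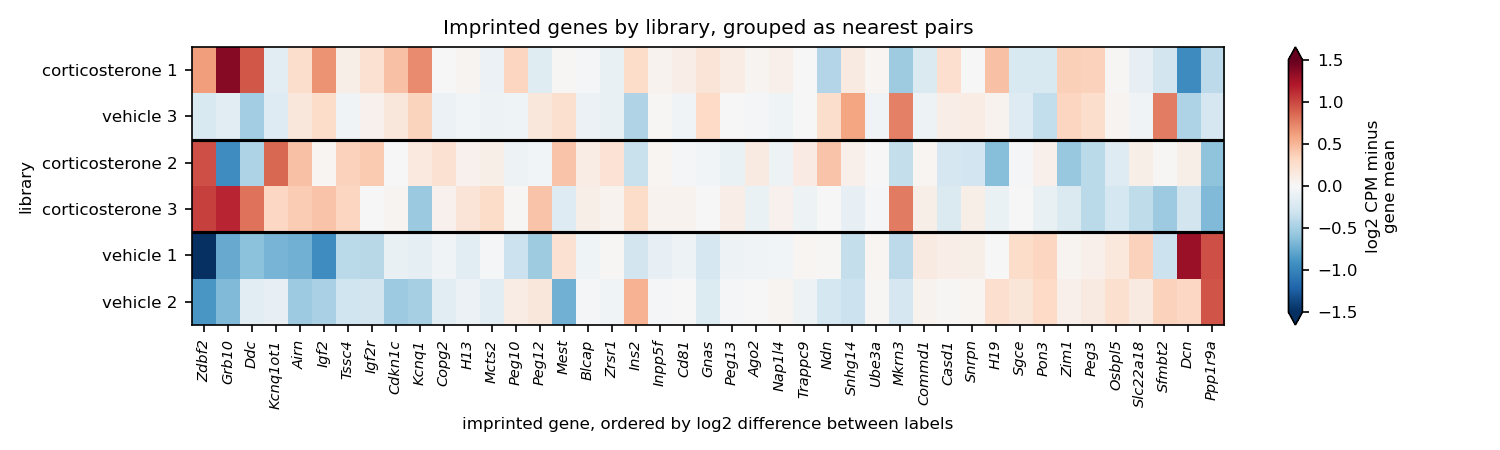
Log2 CPM minus the gene's mean (colour) for the 43 imprinted genes tested (columns, ordered by the difference between labels) in 6 libraries (rows, grouped as the 3 near pairs between black lines). Zdbf2 at the left is above its mean in all 3 libraries labelled corticosterone, and Peg3 has near-equal colours within each pair.

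Genes for proteins of DNA methylation, DNA demethylation, imprint binding and chromatin, and Polycomb were listed too, and most had RNA counts. Of the 19 genes, 18 passed the filter, 7 with positive and 11 with negative differences and a median of -0.07. None was called by edgeR, 3 had an unadjusted p under 0.05 (11.8% of all genes did), and DESeq2 called 0. No overlap was seen for 5 (27.8%, against 16.6% of all genes), of which Dnmt3a, Tet1, Zfp445 and Ehmt2 were lower and Setdb1 was higher in corticosterone. Dnmt3a, the DNA methyltransferase that sets imprints in germ cells, stood at 24.2, 19.3 and 16.1 CPM against 27.0, 27.5 and 24.5 CPM. Its log2 difference was -0.41 ± 0.15 (edgeR adjusted p = 0.386). Zfp445, a zinc finger protein that guards imprints after fertilization, stood at 37.9, 37.2 and 33.1 CPM against 39.3, 41.9 and 43.5 CPM. The most abundant, Ehmt2 and Trim28, a histone methyltransferase and the corepressor that zinc finger proteins recruit, differed by -0.16 ± 0.08 and -0.10 ± 0.07.

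Genes for receptors and partners of the members' products mostly had RNA counts too. Of 20 genes listed, 19 passed, 7 with positive and 12 with negative differences and a median of -0.01. Of these 2 (10.5%) did not overlap, against 16.6% of all genes. None was called by edgeR, 1 had an unadjusted p under 0.05, against 11.8% of all genes, and DESeq2 called 1, against 0.985%. That gene was Ccna2, the cyclin A2 gene of S phase, at 19.9, 22.3 and 21.2 CPM in corticosterone and 31.2, 28.1 and 28.5 CPM in vehicle. Its log2 difference was -0.47 ± 0.09 (edgeR adjusted p = 0.364). Siah1b, a ubiquitin ligase gene, was the other without overlap, with a difference of 0.06 ± 0.12. Ccnd3 and Cdk4, a cyclin and a kinase of the G1 phase, were the most abundant and differed by -0.01 ± 0.15 and -0.11 ± 0.08. Igf1r and Insr, the receptors through which IGF2 and insulin act, differed by -0.03 ± 0.13 and -0.19 ± 0.13.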

How the data were processed

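Poly(A) RNA of 6 libraries was sequenced on an Illumina instrument. The values the authors deposited are raw counts of reads in genes, in 1 table. The tools are HISAT2 2.0.5, HTSeq 0.6.1 and DESeq2 1.24.0, with build mm10, per the submitters' processing notes. Neither settings nor annotation release was given in the sources used here. Every row named a gene, and 98.95% of identifiers matched GENCODE M21, the source of coordinates and exon lengths.

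Corticosterone was compared with vehicle by edgeR 4.0.16 (R 4.3.3), quasi-likelihood F-test, two-sided, TMM scaling, on 14450 genes kept by filterByExpr, with Benjamini-Hochberg adjustment over them and a threshold of 0.05. Log2 CPM used a prior count of 2. The members and lists were chosen with earlier results of these data known. Genes named were the members, their clusters, the neighbours of Zdbf2, the 5 genes most like it (Dlk1, at 0, allowed none), and from each list the 2 most abundant and the 2 with the largest difference without overlap (at least 5 CPM). Igf2os and the list genes named only as lacking overlap were chosen after their values were seen. The fit was tested on simulated data. Alternatives were DESeq2 1.42.0, limma-voom 3.58.1, other scalings and filters, replicate number as a block, and libraries left out. No column was left unmapped. Windows and microRNA sequences are from RefSeq tables on GRCm38.p6, where 8 of 10 members had a window.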

Additional observations from a re-analysis of the deposited data

How the results depend on the processing

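Plagl1 did not pass the count filter, so its difference between the labels was not tested in the main fit. Dlk1 and Meg3 had no counts, and the cause was not tested. Zdbf2, whose direction its choice fixes, ran from 0.85 to 2.06 on the log2 scale over 16 alternatives; 0.85 was the difference of corticosterone 1 and vehicle 3 alone. Grb10 (0.99 to 1.83), Cdkn1c (0.13 to 0.48) and Igf2 (0.40 to 1.09) were positive in all of theirs and none was called. DESeq2 called 138 genes where edgeR called 0. Among them were 2 imprinted genes, Tssc4 and 1 member, Zdbf2, whose call is no result because it was chosen on this contrast. Leaving out each library in turn gave 0 to 29 genes called, 29 without corticosterone 1 and 11 without vehicle 3, and no member or imprinted gene. Without both libraries numbered 2, 3 genes were called, none imprinted. Signs turned as follows. Ndn was -0.022 with library totals, -0.23 to 0.22 with a library left out, -0.36 without both libraries numbered 2 and -0.71 between corticosterone 1 and vehicle 3. H19 was -0.45 to 0.091 with a library left out, 0.17 without both numbered 2 and 0.38 between corticosterone 1 and vehicle 3. Mest was -0.13 to 0.26, -0.33 and -0.23 in the same order, and Peg3 was 0.080 between corticosterone 1 and vehicle 3. The cause of these changes was not tested. With replicate number as a block, 0 genes were called and Ndn was -0.0021; same-numbered libraries had correlations of deviations of -0.15, -0.27 and -0.32, so the numbers were not taken as pairing. The near pairs were the same 3 with Spearman correlation and with the 500 most variable genes. By Spearman correlation 107 genes tied for first, 4 of the 5 genes most like Zdbf2 among them, and the 5 listed first among the ties shared 0 with those 5.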
